A study of Mus musculus with 32 samples.

Results

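Genes whose change between a pleural and a subcutaneous tumor differed between 2 mouse mesothelioma models are described here. The site effect of a gene is its log2 difference between intrapleural (IPL) and subcutaneous (SC) tumors of 1 model, and the interaction is the site effect in AB1 minus the site effect in AE17. Every gene with enough counts was tested in 1 fit of all 32 tumors, and 3212 of 15681 genes (20.5%) had an interaction with an adjusted p under 0.05. In AB1, IPL tumors held lower levels of T cell receptor, interferon and MHC class I genes and higher levels of mature skeletal muscle, red cell and matrix genes than SC tumors, whereas in AE17 the median site effects of these groups were smaller and, apart from the red cell genes, of the other sign. Values after ± are SEs of log2 effects in the fit, with 8 tumors per group.

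AB1 and AE17 are asbestos-induced murine mesothelioma cell lines, grown in female BALB/c and C57BL/6 mice, respectively, aged 8 to 10 weeks. In each model 8 tumors were grown at the IPL and 8 at the SC site, from 500000 AB1 cells or 1000000 AE17 cells per mouse without any drug treatment, and RNA of the whole tumor was sequenced at day 10 after the lungs and surrounding tissue had been cut away. Each model is 1 cell line in 1 mouse strain at 1 cell dose, so a difference between the models cannot be told apart from a difference between strains, lines or doses. Each mouse gave 1 tumor at 1 site, and total counts per tumor ranged from 15432258 to 20649645. Levels are CPM, the counts of a gene scaled to a fixed library total and adjusted between libraries by TMM factors and not divided by gene length, so they compare tumors and not genes.

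The pleural cavity is lined by mesothelium and borders the chest wall muscles and the diaphragm, whereas a subcutaneous tumor grows between skin and body wall. Interferons are cytokines that switch on antiviral proteins, antigen presentation on MHC class I and chemokines that draw T cells, and interferon-gamma is made mainly by T cells and natural killer (NK) cells. Tumor stroma holds fibroblasts and pericytes that deposit collagen and other matrix. In bulk tissue, fewer cells of a type and less RNA per cell cannot be told apart.

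Of the 3212 genes, 1860 had a higher site effect in AB1 (11.9% of genes tested) and 1352 a higher one in AE17 (8.62%). The site effect itself passed an adjusted p of 0.05 for 4296 genes in AB1 (27.4%) and for 1324 in AE17 (8.44%). Opposite site effects, past the threshold in both models with unlike signs, were found for 158 genes (1.01%), of which 107 rose in AB1 and fell in AE17 IPL tumors and 51 did the reverse. A site effect past the threshold in AB1 but not in AE17 was found for 2120 genes (13.5%), with 1198 up and 922 down. The mirror class, past the threshold in AE17 but not in AB1, held 455 genes (2.9%), with 155 up and 300 down. Of the rest, 29 moved in the same direction in both models by different amounts, and 450 had an interaction but no site effect past the threshold in either model. Over all genes tested the median interaction was 0.02, the median site effect 0.02 in AB1 and 0.00 in AE17.

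Libraries were sequenced on 3 lanes, and the lane moved with the site. All 8 AB1 IPL libraries were on lane 3, which held 2 of the AB1 SC libraries, and all 8 AE17 SC libraries were on lane 1, which held 3 of the AE17 IPL libraries. With the lane as a covariate, 117 genes had an adjusted p under 0.05 for the interaction, 116 of them among the 3212, 0 with opposite effects, 83 past the threshold in AB1 only and 14 in AE17 only. In that fit 3199 of the 3212 genes had the same sign, their interaction had a median of 0.957 times the value without the covariate, the median SE was 1.5 times as large, and 2147 of them had an unadjusted p under 0.05. Within lanes 1 and 3, each of which held both sites of 1 model (21 libraries), 6 genes passed, again with the same sign for 3199 of the 3212 and 1792 at an unadjusted p under 0.05. Over all genes tested an unadjusted p under 0.05 was found for 2594 of 15681 with the lane covariate and 2243 of 16888 within lanes. It was found for 5135 of 15681 in the full fit. The lane covariate and within-lane fits share libraries with the full one, and how far the lane contributes to the counts cannot be told apart from the site.

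Genes of muscle, which borders the tumors, also moved with the groups, as given with the muscle list. Tissue scores were the scaled mean log2 CPM of the tested skeletal muscle, heart and slow muscle, adipocyte and lung epithelium genes (4 for lung). With these scores as covariates, 982 genes passed, 4 with opposite effects, 714 in AB1 only and 54 in AE17 only. Of the 3212, 3190 kept their sign. An unadjusted p under 0.05 was found for 3782 of all 15681 genes tested. The counts of the smaller classes moved with single AE17 tumors. The count of opposite genes was 65 without AE17 SC mouse 6 and 360 without AE17 SC mouse 1, and lay between 73 and 103 without AE17 IPL mouse 1, 4, 7 or 8 or AE17 SC mouse 2, 5, 7 or 8, and at 293 without AE17 SC mouse 3. The count in AE17 only was 213 without AE17 SC mouse 6, 260 without mouse 8, 693 without mouse 3 and 771 without mouse 1 of that group.

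**Figure D1:**
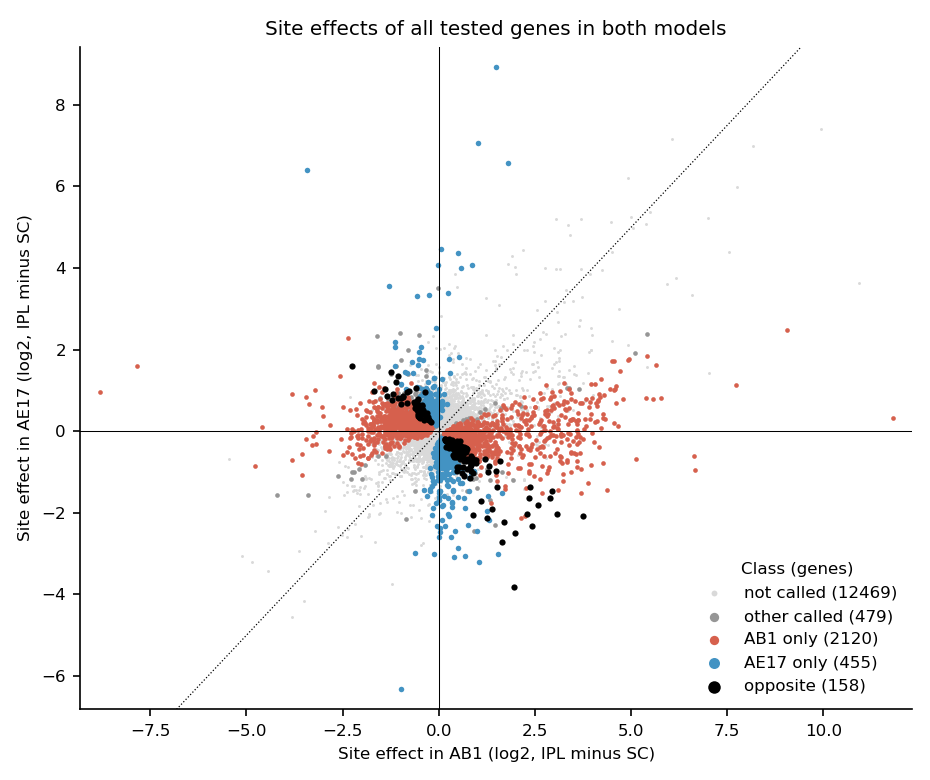
Each point is 1 of the 15681 genes tested, with its site effect in AB1 on the x axis and in AE17 on the y axis (log2, IPL minus SC), and the dotted line marks equal effects. The 2120 genes past the threshold in AB1 only spread along the x axis, the 455 in AE17 only along the y axis, and the 158 with opposite effects lie in the upper left and lower right.

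Among genes with opposite effects, those with the widest separation and a higher level in AB1 IPL tumors were Agtr2, Matn4, Cilp2, Ism1, Agt and Abcc12. Agt encodes angiotensinogen, the precursor of angiotensin, and Agtr2 the angiotensin II type 2 receptor. Agtr2 (chrX:21484544-21489164, plus strand) ranged from 0.292 to 2.91 CPM (median 1.69) in AB1 IPL and 0.0583 to 0.631 CPM (median 0.243) in AB1 SC tumors. In AE17 the order turned, with 0.178 to 2.02 CPM (median 0.887) in IPL and 0.117 to 16.9 CPM (median 2.13) in SC tumors. In AB1, 7 of 8 IPL tumors lay above every SC tumor, whereas in AE17 the sites overlapped. The site effect of Agtr2 was 2.43 ± 0.69 in AB1 and -2.32 ± 0.61 in AE17, an interaction of 4.75 ± 0.92 with an adjusted p of 0.000701. Agt (chr8:124556534-124569706, minus strand) rose by 1.99 ± 0.59 in AB1, from a median of 0.122 CPM in SC to 0.430 CPM in IPL tumors. It fell by 2.50 in AE17, from 1.43 to 0.323 CPM, and the interaction was 4.49 ± 0.76 (adjusted p = 0.000196). Both genes were low, at a few CPM or less in most tumors.

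Matn4 and Cilp2 encode matrix proteins first known from cartilage, matrilin 4 and cartilage intermediate layer protein 2. Matn4 (chr2:164389393-164405160, minus strand) ranged from 0 to 2.40 CPM (median 0.937) in AB1 IPL against 0 to 0.175 CPM (median 0.0818) in AB1 SC tumors, and from 0.119 to 2.24 CPM (median 1.08) in AE17 IPL against 1.57 to 8.28 CPM (median 4.77) in AE17 SC tumors. Of the 8 IPL tumors, 6 in AB1 were above every SC tumor and 6 in AE17 below every SC tumor. Its interaction was 5.84 ± 0.91 (adjusted p = 9.55e-05). Cilp2 (chr8:69880369-69887687, minus strand) had an interaction of 5.12 ± 0.86 (adjusted p = 0.000176), from site effects of 3.07 in AB1 and -2.04 in AE17. Ism1, encoding the secreted protein isthmin 1 (chr2:139678178-139758581, plus strand), separated the AE17 sites completely. Its levels were 0.772 to 2.38 CPM in the 8 IPL and 2.53 to 9.61 CPM in the 8 SC tumors, while in AB1 4 of 8 IPL tumors were above every SC tumor. The interaction of Ism1 was 4.32 ± 0.79 (adjusted p = 0.000434). Abcc12, an ABC transporter gene (chr8:86482260-86580686, minus strand), rose by 1.96 in AB1 IPL tumors, to 0.561 to 2.18 CPM (median 1.20), and in AE17 IPL tumors was at 0 to 0.121 CPM against 0.0599 to 2.16 CPM in SC tumors. Its interaction was 5.77 ± 0.81 (adjusted p = 3.86e-05).

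In the reverse direction the leading genes were Slc17a6, Cd8b1, Cd22, Acap1, Cth and Il12rb1. Acap1, which encodes a GTPase-activating protein for Arf6 (chr11:69881567-69895539, minus strand), ranged from 6.69 to 18.5 CPM (median 12.8) in AB1 IPL and 24.3 to 45.3 CPM (median 32.3) in AB1 SC tumors, with no overlap. In AE17 it ranged from 76.2 to 141 CPM (median 93.6) in IPL and 18.3 to 95.4 CPM (median 48.4) in SC tumors, and 4 of 8 IPL tumors lay above every SC tumor. Its interaction was -2.42 ± 0.34 with an adjusted p of 4.27e-05. Cth, cystathionine gamma-lyase of cysteine synthesis (chr3:157894248-157925077, minus strand), was likewise below every SC tumor in all 8 AB1 IPL tumors (2.45 to 4.12 against 4.63 to 20.8 CPM). In AE17, 7 of 8 IPL tumors were above every SC tumor (17.4 to 25.5 against 3.09 to 19.2 CPM), and the interaction was -2.68 ± 0.38 (adjusted p = 4.27e-05). Cd8b1 (chr6:71322788-71337494, plus strand) encodes the beta chain of the CD8 coreceptor of cytotoxic T cells. It fell by 1.23 in AB1, from a median of 13 to 4.98 CPM, and rose by 1.45 in AE17, from 3.97 to 17.7 CPM. The AE17 SC tumors spread from 0.849 to 18.9 CPM, which overlaps the IPL range of 11.5 to 25 CPM. The interaction of Cd8b1 was -2.68 ± 0.58 (adjusted p = 0.00188).

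Il12rb1, the receptor subunit shared by interleukin 12 and interleukin 23 (chr8:70808449-70821424, plus strand), had site effects of -0.93 in AB1 and 0.84 in AE17, an interaction of -1.76 ± 0.35 (adjusted p = 0.001). Cd22, an inhibitory receptor of B cells (chr7:30865402-30880342, minus strand), had site effects of -1.10 and 1.20, an interaction of -2.31 ± 0.55 (adjusted p = 0.00357). Slc17a6, a vesicular glutamate transporter (chr7:51622006-51671119, plus strand), was at 0.157 to 1.68 CPM in AB1 IPL and 2.05 to 6.44 CPM in AB1 SC tumors. In AE17 it rose by 1.61, to 0.353 to 1.73 CPM against 0.0583 to 0.524 CPM. Under the lane covariate, Abcc12 (5.16), Slc17a6 (-3.91), Acap1 (-2.31) and Cth (-2.10) kept an adjusted p under 0.05 for the interaction, and the other 8 had values of the same sign with adjusted p between 0.0688 and 0.184. With the tissue scores, 11 of the 12 stayed past the threshold, and Agtr2 had 2.75 (adjusted p = 0.0903).

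**Figure D2:**
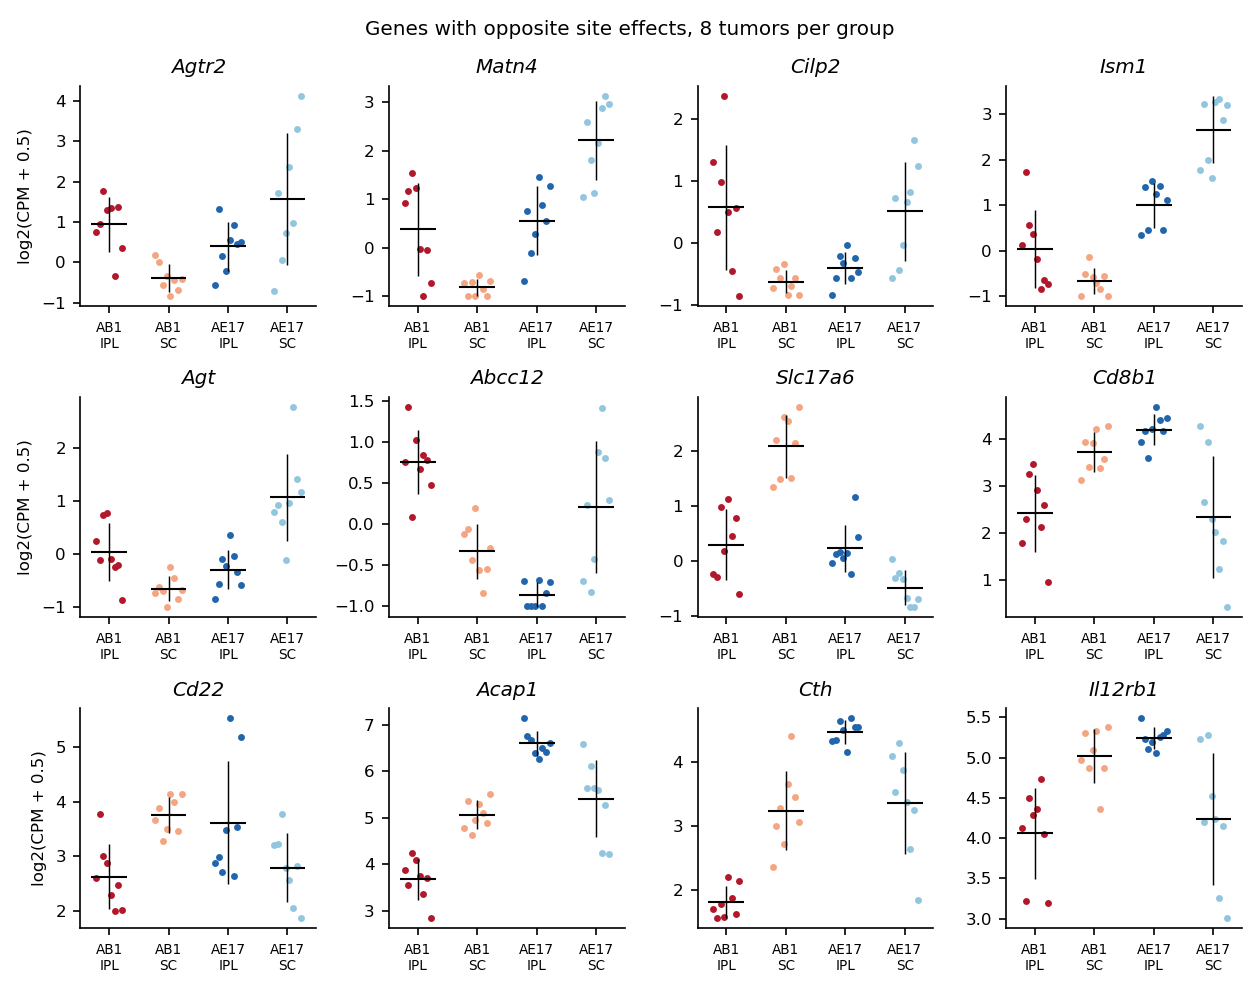
Levels of the 12 leading genes with opposite site effects, as log2(CPM + 0.5), in each of the 8 tumors per group (points), with the mean (horizontal bar) and SD (vertical bar). The first 6 genes are higher in AB1 IPL than AB1 SC and lower in AE17 IPL than AE17 SC tumors, and the last 6 the reverse, with single tumors overlapping in most panels.

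Functions were compared with 41 lists of marker and pathway genes, and for each list the number of its tested members past the threshold for the interaction is given beside the 20.5% over all genes tested, or beside 11.9% or 8.62% where all members moved in 1 direction. Counts of members that rose or fell within a model stand beside the 27.4% (AB1) and 8.44% (AE17) of all genes with a site effect in either direction. Where other tools are named, 4606 of 15681 genes passed the interaction by limma-voom and 3615 of 30148 by DESeq2. Lists that share cells or pathways do not hold independent genes.

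**Figure D3:**
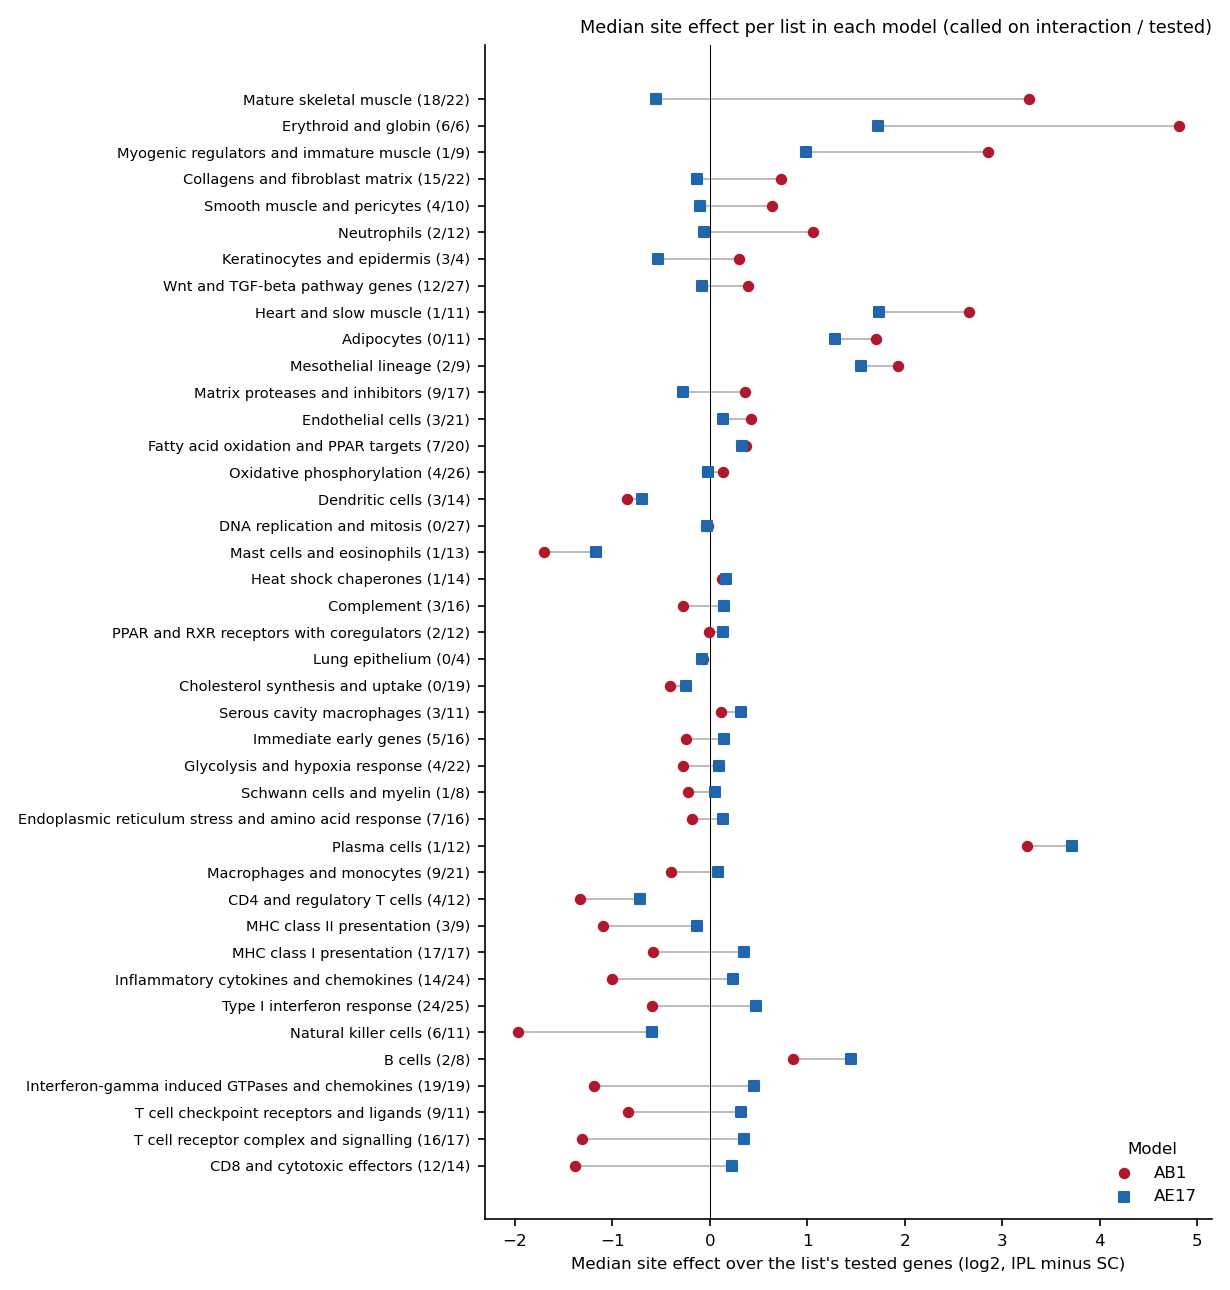
Median site effect (log2, IPL minus SC) over the tested genes of each of the 41 lists, in AB1 (circles) and AE17 (squares), ordered by the median interaction, with the number of members past the threshold for the interaction and the number tested. Skeletal muscle and erythroid genes at the top had a higher median in AB1, and T cell receptor, cytotoxic T cell, interferon and MHC class I genes toward the bottom had a negative median in AB1 and a positive one in AE17, while CD4 and regulatory T cell genes had a negative median in both.

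Genes of the T cell receptor complex and of cytotoxic T cells fell in IPL tumors of AB1 (17 of 17 and 12 of 14), while in AE17 0 of 17 and 1 of 14 fell and 0 and 3 rose. Of 17 T cell receptor and signaling genes, 16 had an interaction past the threshold, all lower in AB1 (94.1% of the list against 8.62% of all genes tested), and in all 16 the site effect passed in AB1 only. The median site effect of the list was -1.31 in AB1 and 0.35 in AE17. Summed over the list, AB1 IPL tumors held 73.6 to 224 CPM (median 140.2) and AB1 SC tumors 260.1 to 504 CPM (median 344), without overlap. AE17 IPL tumors held 145 to 374 CPM (median 275) and AE17 SC tumors 67.8 to 461 CPM (median 207), so that the wider spread was among the SC tumors. Trbc1, a constant segment of the T cell receptor beta chain, ranged from 6.48 to 20.9 CPM (median 13.1) in AB1 IPL and 28.9 to 65.1 CPM (median 40.9) in AB1 SC tumors. In AE17 the ranges were 13.5 to 34.6 CPM (median 23) in IPL and 3.28 to 42.2 CPM (median 15.5) in SC tumors, and the interaction was -1.99 ± 0.45 (adjusted p = 0.00265). Trbc2 (-2.05 ± 0.47), the costimulatory receptor gene Cd28 (-2.25 ± 0.45) and the receptor kinase gene Zap70 (-1.89 ± 0.43) had interactions of like size.

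Of 14 genes of CD8 T cells and cytotoxic effectors, 12 passed, all lower in AB1, with a median site effect of -1.39 in AB1 and 0.23 in AE17. The site effect passed in AB1 only for 9 of them, in AE17 only for 2, which rose in AE17 IPL tumors, and in both with unlike signs for Cd8b1. Ccl5, a chemokine made by cytotoxic lymphocytes, was at 7.47 to 24.9 CPM (median 19.5) in AB1 IPL and 33.3 to 126 CPM (median 59.6) in AB1 SC tumors. In AE17 it was at 44.0 to 121 CPM (median 81.8) in IPL and 20.9 to 131 CPM (median 62.1) in SC tumors, where the groups overlapped throughout. The interaction was -2.30 ± 0.44 with an adjusted p of 0.000627. Eomes, a transcription factor of effector and memory lymphocytes (-1.52 ± 0.28), Crtam, an adhesion receptor of activated T cells (-1.58 ± 0.31), and Fasl, the ligand of the death receptor Fas (-2.19 ± 0.47), each fell in AB1 with no site effect past the threshold in AE17. Several defining genes of cytotoxic cells, among them Gzmb, Prf1 and Ifng, are not analysed here.

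Checkpoint receptors and their ligands, which restrain T cells, fell in AB1 for 7 of 11 and rose in AE17 for 3 of 11, with 9 of 11 past the threshold and lower in AB1. Pdcd1lg2, the PD-1 ligand PD-L2, was at 2.03 to 5.67 CPM in AB1 IPL and 19.8 to 71.1 CPM in AB1 SC tumors, a site effect of -3.81 ± 0.36, against -0.71 ± 0.35 in AE17. The interaction of Pdcd1lg2 was -3.10 ± 0.49 (adjusted p = 0.000104). Cd274, the PD-1 ligand PD-L1, was at 33.4 to 97.8 CPM (median 63.3) in AB1 IPL and 98.6 to 234 CPM (median 151) in AB1 SC tumors, and at 72.5 to 114 and 22.6 to 115 CPM in AE17 IPL and SC tumors (-1.67 ± 0.35). Lag3, an inhibitory receptor of T cells, fell by 1.23 in AB1 and rose by 0.77 in AE17, and Cd96, a receptor of T and NK cells, had an interaction of -2.17 ± 0.43. NK cell genes fell in AB1 IPL tumors (11 of 11) and for 5 of 11 in AE17 IPL tumors, with medians of -1.97 in AB1 and -0.60 in AE17. The interaction passed for the 6 of 11 whose fall passed in AB1 only, and for 0 of the 5 that fell in both models. Klrd1, the CD94 receptor of NK cells, was at 3.24 to 8.72 CPM in AB1 IPL and 14.7 to 35.4 CPM in AB1 SC tumors, and at 9.09 to 14.3 and 2.79 to 18.3 CPM in AE17 IPL and SC tumors. The interaction of Klrd1 was -2.21 ± 0.36 (adjusted p = 0.000135), and that of its partner Klrc1 -2.16 ± 0.48.

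Genes of CD4 and regulatory T cells fell for 12 of 12 in AB1 and 6 of 12 in AE17, with 4 of 12 past the threshold for the interaction and medians of -1.33 in AB1 and -0.72 in AE17. Il2ra, the interleukin 2 receptor alpha chain, high in regulatory T cells, fell in both models, by 1.99 in AB1 and by 1.16 in AE17. Ikzf2, a regulatory T cell transcription factor, fell in AB1 (-1.21) with -0.03 in AE17, and Tnfrsf9 and Tnfrsf18, costimulatory receptors, fell in AB1 with interactions of -0.99 and -0.65. Tnfrsf18 no longer passed when any 1 of 19 tumors was left out (adjusted p up to 0.0743). The count of 4 was 2 without AB1 SC mouse 8, AE17 IPL mouse 7 or AE17 SC mouse 6. With the lane as a covariate 0 of 17 T cell receptor, 1 of 14 cytotoxic, 2 of 11 checkpoint, 3 of 11 NK and 0 of 12 CD4 genes passed, at medians of -1.76, -1.73, -1.42, -1.25 and -0.76, and within lanes 0 of each. At an unadjusted p under 0.05 the lane covariate left 15, 11, 9, 6 and 3, beside 2594 of all 15681 genes tested. The within-lane fit left 14, 11, 9, 5 and 5 (the last of 14 tested), beside 2243 of all 16888. With the tissue scores 11, 9, 5, 3 and 1 had an adjusted p under 0.05.

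Interferon-induced genes fell in IPL tumors of AB1 and had site effects above 0 in AE17, most of which did not pass on their own. Of 25 type I interferon response genes, 24 had an interaction past the threshold, all lower in AB1, with a median site effect of -0.59 in AB1 and 0.47 in AE17. The site effect passed in AB1 only for 17, in AE17 only for 4 and in neither model for 3. Of 19 interferon-gamma induced GTPases and chemokines, 19 passed, with medians of -1.19 in AB1 and 0.45 in AE17. The site effect passed in AB1 only for 16 and in neither model for 3. Of 17 genes of MHC class I presentation, 17 passed, with medians of -0.59 and 0.35, and 15 were past the threshold in AB1 only. Psme1, a subunit of a proteasome activator, was the member with opposite effects, which were -0.45 ± 0.13 in AB1 and 0.42 ± 0.13 in AE17.

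The 300 bases around the transcription start of 3 of these genes are given to show a motif that many genes of these lists hold, from RefSeq on GRCm38.p6 (250 bases before the start and 50 after), written along the strand of the gene. Capitals mark the match to GAAANNGAAA, the core of the element bound by interferon-activated transcription factors, searched on both strands. Each is the member of its list with the smallest interaction p among those whose promoter held the motif. Genes of a single chromosome were passed over in this choice.
Ddx58, chr4:40239776-40240075, minus strand: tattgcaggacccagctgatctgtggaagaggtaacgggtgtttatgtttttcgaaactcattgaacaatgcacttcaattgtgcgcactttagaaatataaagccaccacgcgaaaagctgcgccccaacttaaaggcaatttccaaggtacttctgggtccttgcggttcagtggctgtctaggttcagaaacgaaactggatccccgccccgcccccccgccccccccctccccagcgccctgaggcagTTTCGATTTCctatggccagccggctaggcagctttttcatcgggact
Cxcl10, chr5:92348840-92349139, minus strand: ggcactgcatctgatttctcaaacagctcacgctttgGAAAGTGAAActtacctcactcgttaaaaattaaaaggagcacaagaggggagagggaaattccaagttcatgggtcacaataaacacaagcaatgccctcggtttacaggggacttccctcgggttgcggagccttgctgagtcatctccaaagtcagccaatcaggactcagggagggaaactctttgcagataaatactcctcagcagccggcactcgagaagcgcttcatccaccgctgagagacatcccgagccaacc
B2m, chr2:122147437-122147736, plus strand: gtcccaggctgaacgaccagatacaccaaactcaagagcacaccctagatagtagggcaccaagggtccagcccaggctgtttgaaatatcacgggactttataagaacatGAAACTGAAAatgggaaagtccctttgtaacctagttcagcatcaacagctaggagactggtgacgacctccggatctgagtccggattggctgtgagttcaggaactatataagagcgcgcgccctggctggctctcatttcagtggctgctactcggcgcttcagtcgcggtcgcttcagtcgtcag

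The match began at base 253 of the Ddx58, 38 of the Cxcl10 and 112 of the B2m promoter, counted from 1. A match was held by 943 of 27025 RefSeq promoters of the same length (3.49%) and by 334 of 10064 promoters of tested genes (3.32%). It was held by 9 of 15 type I interferon response genes with a promoter in the table (60%), 10 of 12 interferon-gamma induced genes (83.3%) and 3 of 14 MHC class I genes (21.4%). These lists were assembled from genes known to respond to interferon, and a match is a description of the letters and not a site.

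Ddx58 encodes RIG-I, a sensor of viral RNA, and had an interaction of -0.85. Cxcl10, a chemokine that attracts T cells, was at 46.3 to 114 CPM (median 64.4) in AB1 IPL and 87.5 to 232 CPM (median 166) in AB1 SC tumors. In AE17 it was at 365 to 662 CPM (median 480.1) in IPL and 149 to 436 CPM (median 354) in SC tumors, so 6 of 8 AB1 IPL tumors were below and 5 of 8 AE17 IPL tumors above every SC tumor. Its site effect was -1.19 ± 0.21 in AB1 (adjusted p = 8.92e-05) and 0.57 ± 0.21 in AE17 (adjusted p = 0.0832), and the interaction -1.76 ± 0.30 (adjusted p = 0.000177). Cxcl11, a ligand of the same receptor, had -2.17 ± 0.32 (adjusted p = 5.54e-05), and Gbp3 and Gbp5, guanylate-binding proteins that act against intracellular microbes, had -1.80 ± 0.32 and -1.77 ± 0.32. Among type I response genes, Ifi44 was above every SC tumor in 7 of 8 AE17 IPL tumors (171 to 238 against 52.0 to 179 CPM), while AB1 IPL tumors held 20.0 to 101 and AB1 SC tumors 50.4 to 160.2 CPM. Its interaction was -1.78 ± 0.37 (adjusted p = 0.00117). Zbp1, a sensor of Z-form nucleic acids (-1.41 ± 0.27), Oasl2, of the oligoadenylate synthetase family (-1.23 ± 0.24), and Xaf1 (-1.18 ± 0.24) fell in AB1 with site effects of 0.55, 0.40 and 0.43 in AE17 that did not pass.

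B2m, the light chain of MHC class I, was at 1233 to 1784 CPM (median 1593) in AB1 IPL and 1888 to 2675 CPM (median 2253) in AB1 SC tumors, without overlap. In AE17 IPL and SC tumors it was at 2583 to 3234 CPM (median 2992) and 1699 to 3389 CPM (median 2608), the SC range enclosing the IPL range, and the interaction was -0.79 ± 0.16 (adjusted p = 0.000949). Tapbp and Tap1, which load and transport peptides for MHC class I, were also below every SC tumor in all 8 AB1 IPL tumors, with interactions of -0.97 ± 0.17 and -1.05 ± 0.21, and Nlrc5, the transactivator of MHC class I genes, in 7 of 8, with -1.23 ± 0.24. Summed over the 17 genes, AB1 IPL tumors held 5102 to 9119.5 CPM (median 8399.8) and AB1 SC tumors 10124 to 12938 CPM (median 11113), and AE17 IPL and SC tumors 9902 to 13074 CPM (median 11540) and 5659.5 to 13003 CPM (median 8986). The sums of the interferon-gamma list were 1705 to 5434 CPM (median 3488) and 4215 to 9225 CPM (median 6887) in AB1 IPL and SC tumors, and 4203 to 6526 CPM (median 5565) and 2104 to 5676 CPM (median 4056) in AE17. MHC class II genes, used by antigen-presenting cells, fell in AB1 for 6 of 9 and passed the interaction for 3 of 9, the peptide-loading genes H2-DMb1 (-1.11 ± 0.30), H2-DMb2 (-1.09 ± 0.30) and H2-DMa (-0.93 ± 0.27). H2-Aa, a class II chain, had -0.91 ± 0.38 (adjusted p = 0.0849).

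With the lane in the fit 0 of 25 type I, 2 of 19 interferon-gamma, 1 of 17 MHC class I and 0 of 9 class II genes passed, at medians of -0.94, -1.45, -1.0 and -1.0, and within lanes 0 of each. At an unadjusted p under 0.05 the lane covariate left 18, 19, 17 and 3, beside 2594 of all 15681 genes tested. The within-lane fit left 17, 19, 17 and 3, beside 2243 of all 16888. With the tissue scores 4, 10, 9 and 0 had an adjusted p under 0.05. The summed T cell receptor level, given above, was also lower in AB1 IPL than in AB1 SC tumors, and its part in these lists was not tested.

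**Figure D4:**
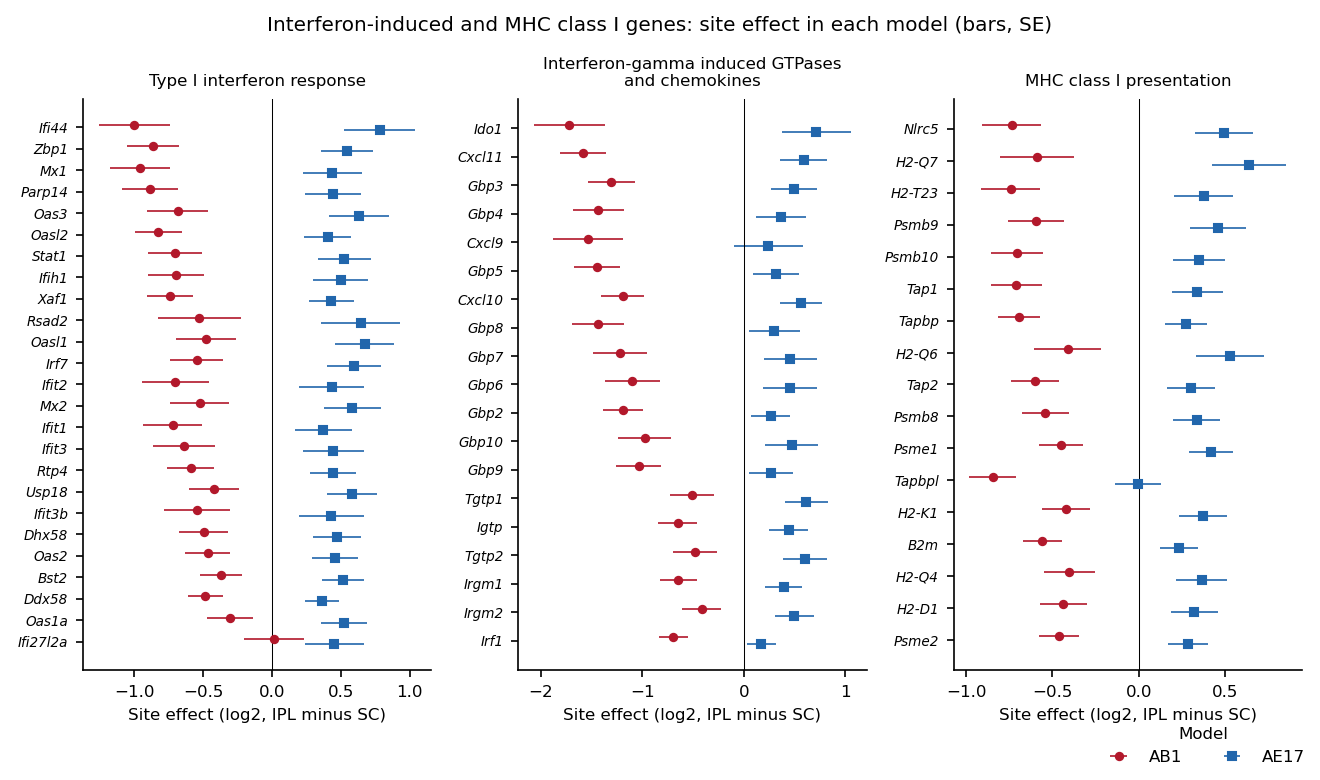
Site effect of every tested gene of the type I interferon, interferon-gamma and MHC class I lists (log2, IPL minus SC), in AB1 (circles) and AE17 (squares), with the SE as bars. Values in AB1 lie left of 0 and values in AE17 right of 0 for nearly every gene, with Ifi27l2a in AB1 and Tapbpl in AE17 on the line at 0.

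Inflammatory cytokines and chemokines fell for 16 of 24 in AB1 IPL tumors, while in AE17 2 rose and 1 fell, with 14 of 24 past the threshold for the interaction, all lower in AB1, and medians of -1.01 in AB1 and 0.23 in AE17. Summed, they were at 831 to 1480.5 CPM (median 990.5) in AB1 IPL and 1582 to 3156 CPM (median 2499.5) in AB1 SC tumors, without overlap, and at 1056 to 1412 CPM (median 1196) and 856 to 1548 CPM (median 1140.5) in AE17. Ccl2, the main chemokine for monocytes, ranged from 96.3 to 227 CPM (median 137) in AB1 IPL and 222 to 573 CPM (median 482) in AB1 SC tumors, and from 188 to 323 CPM (median 262) in AE17 IPL and 118 to 270.2 CPM (median 194) in AE17 SC tumors. The interaction of Ccl2 was -2.04 ± 0.27 (adjusted p = 2.89e-05). Lif, a cytokine of the interleukin 6 family, fell by 0.63 in AB1 and rose by 0.67 in AE17, and Csf1, the growth factor of macrophages, had a small interaction of -0.64 ± 0.12 (adjusted p = 0.000378). With the lane as a covariate 2 of 24 passed (median -0.91) and with the tissue scores 5. Macrophage genes passed for 9 of 21, 8 of them lower in AB1, such as Nos2, inducible nitric oxide synthase (-2.14 ± 0.56). The exception was Cx3cr1, a chemokine receptor that rose in AB1 (0.95 ± 0.24). C1qa and C1qc, complement genes made by macrophages, had -0.67 ± 0.20 and -0.61 ± 0.20. The macrophage count was 4 or 5 without AB1 IPL mouse 1, 7 or 8, AB1 SC mouse 2, 5 or 8, AE17 IPL mouse 7 or 8, or AE17 SC mouse 6 or 8, and 0 with the lane as a covariate (6 at an unadjusted p under 0.05) and 1 with the tissue scores.

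Among genes with a site effect in AB1 only that fell, the largest interactions with a small effect in AE17 were those of Ido2, F10, Il1a, Tarm1 and Car4. Ido2, an enzyme of tryptophan breakdown (chr8:24531892-24576333, minus strand), was at 0.426 to 4.44 CPM (median 1.46) in AB1 IPL and 9.39 to 18.6 CPM (median 16.1) in AB1 SC tumors, and at 4.05 to 12.6 CPM (median 8.66) and 3.79 to 9.88 CPM (median 7.06) in AE17 IPL and SC tumors. All 8 AB1 IPL tumors lay below every SC tumor, while the AE17 sites overlapped. Its site effect was -3.01 ± 0.29 in AB1 and 0.38 ± 0.27 in AE17, and the interaction -3.39 ± 0.39 (adjusted p = 6.89e-06) was -3.26 with the lane as a covariate (adjusted p = 0.00911), -3.25 within lanes (adjusted p = 0.044) and -2.98 with the tissue scores (adjusted p = 0.000731). F10, coagulation factor X (chr8:13037308-13056676, plus strand), was at 1.26 to 7.40 CPM in AB1 IPL and 17.1 to 62.8 CPM in AB1 SC tumors, with an interaction of -3.15 ± 0.54 (adjusted p = 0.000198). Il1a, the cytokine interleukin 1 alpha (chr2:129299610-129309972, minus strand), and Tarm1, an activating receptor of myeloid cells (chr7:3486500-3502624, minus strand), also fell below every SC tumor in all 8 AB1 IPL tumors, with -2.98 ± 0.52 and -2.94 ± 0.43. With the lane in the fit Tarm1 was -2.74 (adjusted p = 0.0316), and F10 (-2.90, adjusted p = 0.0557) and Il1a (-2.65, adjusted p = 0.075) no longer passed. Car4, carbonic anhydrase 4 (chr11:84957786-84966044, plus strand), fell by 3.18 in AB1, from a median of 19.3 to 1.78 CPM. Its interaction of -2.86 ± 0.80 (adjusted p = 0.0109) was -2.03 without AE17 IPL mouse 5 (adjusted p = 0.0712), -1.57 with the lane as a covariate (adjusted p = 0.625) and -2.57 with the tissue scores (adjusted p = 0.0848).

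Skeletal muscle genes rose in AB1 IPL tumors (20 of 22) and in AE17 for 0 of 22. Of the 22, 18 had an interaction past the threshold, all higher in AB1 (11.9% of all genes tested) and all with a site effect in AB1 only. The median site effect was 3.27 in AB1 and -0.55 in AE17. Summed over the list, AB1 IPL tumors held 183 to 7759 CPM (median 3912) and AB1 SC tumors 114 to 788 CPM (median 513), and 7 of 8 AB1 IPL tumors were above every SC tumor. The exception was AB1 IPL mouse 2, at the lowest value. AE17 IPL and SC tumors held 198 to 1409 CPM (median 983) and 188 to 2074 CPM (median 1032), which overlap. Tnni2, fast skeletal troponin I, was at 8.2 to 259 CPM (median 108) in AB1 IPL and 1.75 to 21.5 CPM (median 14.4) in AB1 SC tumors, against 1.54 to 31 CPM (median 17.3) and 0.783 to 59.0 CPM (median 22) in AE17, an interaction of 3.99 ± 1.01 (adjusted p = 0.00613). Pygm, muscle glycogen phosphorylase, had 4.44 ± 0.94, Pvalb, the calcium buffer parvalbumin, 5.83 ± 1.40 and Tnnc2, fast troponin C, 4.09 ± 1.03.

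Of the 5 genes that rose in AB1 only with the largest interaction and a small effect in AE17, 4 are muscle genes and the fifth is Slc4a1, given with the red cell genes. Mylk2, skeletal muscle myosin light chain kinase (chr2:152911352-152923068, plus strand), was at 0.533 to 72.9 CPM (median 29.8) in AB1 IPL and 0.181 to 4.20 CPM (median 1.76) in AB1 SC tumors, with an interaction of 4.55 ± 1.05 (adjusted p = 0.003). Hfe2, which encodes hemojuvelin (chr3:96525172-96529210, plus strand), had 4.53 ± 1.14, Scn4a, the sodium channel of skeletal muscle (chr11:106318592-106353288, minus strand), 4.35 ± 0.98, and Art1, an ADP-ribosyltransferase of muscle (chr7:102101743-102113933, plus strand), 4.30 ± 1.16. AB1 IPL mouse 2 had the lowest level of each of the 4 in its group. With the tissue scores, which include this muscle list, these 4 values were 1.13, 0.39, 1.33 and 0.10, and the median of the 22 genes was 0.07 with 2 past the threshold, 1 in each direction. Under the lane covariate the 4 values were between 3.45 and 4.37 (adjusted p between 0.193 and 0.34). The median of the list was then 2.99, and 0 passed. An unadjusted p under 0.05 was found for 4 of 22, a share near the 2594 of 15681 over all genes tested. The interaction passed for 1 of 11 genes of heart and slow muscle and for 1 of 9 of immature muscle, and their medians were positive in both models, at 2.66 in AB1 and 1.73 in AE17 for heart and slow muscle and at 2.86 and 0.98 for immature muscle. Tnnt2, cardiac troponin T, rose by 3.13 in AB1 and had 1.48 in AE17, with an interaction of 1.65 ± 0.71 (adjusted p = 0.0981). Chrnd, a subunit of the fetal and adult muscle acetylcholine receptor, was the member of the immature muscle list that passed (2.95 ± 0.90), and Nppb, a natriuretic peptide, which fell in AB1 (-1.02 ± 0.34), that of the heart list. When single tumors were left out, the heart and slow muscle count lay between 0 and 2 and the immature muscle count between 1 and 3, with 3 without AB1 IPL mouse 2.

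Red cell genes rose in AB1 IPL tumors (6 of 6), to very unequal levels. All 6 tested genes of the erythroid list passed, higher in AB1, with medians of 4.81 in AB1 and 1.72 in AE17. The level summed over the 9 genes of the list with a row was 53.5 to 3546 CPM (median 504) in AB1 IPL and 23.4 to 66.7 CPM (median 43.9) in AB1 SC tumors, and 73.8 to 706 CPM (median 207) and 29.6 to 223 CPM (median 74.3) in AE17. Hbb-bs and Hbb-bt, near-identical beta globin genes between which reads can be split, had 3.17 ± 1.00 and 3.15 ± 1.01, and Alas2, the first enzyme of heme synthesis in red cells, 3.23 ± 1.07. Slc4a1, the anion exchanger of the red cell membrane (chr11:102348824-102366203, minus strand), had 3899 counts over the 8 AB1 IPL and 0 over the 8 AB1 SC tumors, at least 1178-fold higher against a floor of 3 counts over the group, and 90 and 71 counts over the AE17 IPL and SC tumors. In AB1 IPL tumors it ranged from 0 to 88.7 CPM (median 0.900), with 32.5 to 88.7 CPM in 3 tumors and at most 1.49 CPM in the other 5. The number of the 6 genes past the threshold was 1 without AB1 IPL mouse 4 and 2 without AB1 IPL mouse 3 or AE17 SC mouse 6, and it was 1 by limma-voom, 1 with the replicate number as a block and 0 with the lane as a covariate (3 at an unadjusted p under 0.05) or the tissue scores (1).

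**Figure D5:**
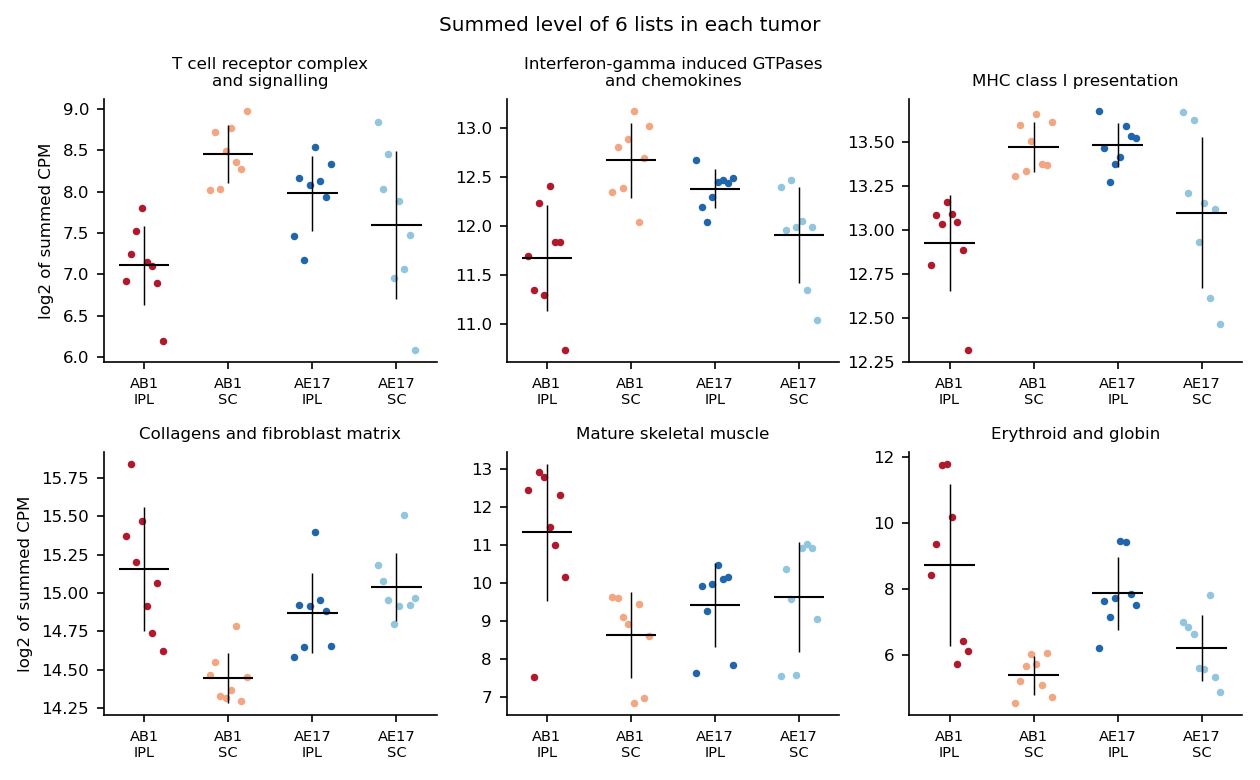
Summed CPM of 6 lists on a log2 scale, in each of the 8 tumors per group (points), with the mean (horizontal bar) and SD (vertical bar). T cell receptor and MHC class I sums of AB1 IPL tumors lie below every AB1 SC tumor, while muscle sums lie above every AB1 SC tumor in 7 of 8 mice.

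Collagens and fibroblast matrix genes rose in AB1 IPL tumors for 17 of 22, and in AE17 0 rose and 1 fell. Of the 22, 15 had an interaction past the threshold, all higher in AB1, with medians of 0.72 in AB1 and -0.14 in AE17, 12 with a site effect in AB1 only. The summed level was 25234 to 58786 CPM (median 35972) in AB1 IPL and 20066 to 28177 CPM (median 21803) in AB1 SC tumors, and 24524 to 43113 CPM (median 30593) and 28412 to 46605 CPM (median 31865) in AE17. The 3 chains of collagen VI, a matrix collagen around cells, led the list. Col6a3 was at 902 to 1514 CPM (median 1100.1) in AB1 IPL and 580.5 to 817 CPM (median 636) in AB1 SC tumors, without overlap, and at 778 to 1306 CPM (median 918) in AE17 IPL and 1083 to 3058 CPM (median 1527) in AE17 SC tumors. It had opposite site effects, 0.80 ± 0.15 and -0.75 ± 0.15, and an interaction of 1.56 ± 0.21 (adjusted p = 2.89e-05). Col6a1 (1.28 ± 0.26) and Col6a2 (1.32 ± 0.27) followed, with site effects of -0.53 and -0.56 in AE17 that did not pass. Col1a1, a chain of the main fibrillar collagen, rose by 1.14 in AB1 and had -0.17 in AE17 (1.31 ± 0.27). With the lane as a covariate 1 of 22 passed (median 0.91, 14 at an unadjusted p under 0.05) and within lanes 0 (13 unadjusted). With the tissue scores 11 passed (median 0.76).

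Of 10 genes of smooth muscle and of pericytes, the cells that wrap small vessels, 5 rose in AB1 IPL tumors, and in AE17 2 rose and 2 fell. The interaction passed for 4, all higher in AB1, of which 2 had opposite effects, 1 a rise in AB1 only and 1, Kcnj8, a site effect past the threshold in neither model. Cspg4, the pericyte proteoglycan NG2, was at 5.81 to 23.6 CPM (median 11.7) in AB1 IPL against 2.72 to 6.78 CPM (median 3.88) in AB1 SC tumors, and at 10.6 to 60.4 CPM (median 21.1) in AE17 IPL against 22.6 to 285 CPM (median 112) in AE17 SC tumors. Its site effects of 1.68 ± 0.42 and -2.23 ± 0.39 gave an interaction of 3.91 ± 0.57 (adjusted p = 5.39e-05). Pdgfrb, the growth factor receptor of pericytes and fibroblasts, was also opposite, at 0.51 in AB1 and -0.35 in AE17 (0.86 ± 0.13, adjusted p = 5.54e-05). Abcc9 and Kcnj8, subunits of a potassium channel of pericytes, completed the 4 with 1.26 ± 0.36 and 0.94 ± 0.30, the latter 0.78 (adjusted p = 0.0518) without AB1 IPL mouse 2. Under the lane covariate 2 of 10 passed, and with the tissue scores 2. Of 17 matrix proteases and inhibitors, 9 passed, 5 higher and 4 lower in AB1, and 5 passed with the tissue scores and 1, Mmp11, with the lane as a covariate (8 at an unadjusted p under 0.05). Mmp11, a stromal metalloproteinase, rose in AB1 and fell in all 8 AE17 IPL tumors below every SC tumor (18.9 to 39.5 against 42.2 to 124 CPM), with an interaction of 1.90 ± 0.27 (adjusted p = 3.98e-05). Mmp12, the macrophage elastase, fell from 27.1 to 108 CPM in AB1 SC to 1.48 to 11.2 CPM in AB1 IPL tumors (-2.99 ± 0.58). Mmp14, a membrane-bound collagenase (0.62 ± 0.13), and Timp2, its inhibitor (0.81 ± 0.18), rose in AB1 by 0.46 and 0.42. All 8 AE17 IPL tumors were below every SC tumor in Timp2 (627 to 741 against 786 to 1292 CPM, adjusted p = 0.0583 for the site effect), while 2 of 8 AB1 IPL tumors were above every SC tumor.

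Of 27 Wnt and TGF-beta pathway genes, 12 passed, all higher in AB1, with medians of 0.39 in AB1 and -0.08 in AE17. Wnt ligands act through Frizzled receptors, and TGF-beta drives matrix deposition. Among the ligands, Tgfb2 rose in all 8 AB1 IPL tumors above every SC tumor (1.34 to 4.58 against 0.483 to 0.910 CPM) and had -0.36 in AE17, with levels of 23.5 to 41.3 CPM in IPL and 28.5 to 74.3 CPM in SC tumors. Its interaction was 2.45 ± 0.33 (adjusted p = 2.89e-05). Wnt5b (0.409 to 1.94 against 0 to 0.202 CPM in AB1) had 3.06 ± 0.44 with an adjusted p of 4.33e-05, and Wnt5a, another ligand of the same branch, had 1.57 ± 0.32. Axin2, an inhibitor that is itself a target of Wnt signaling, was the member with opposite effects, 0.39 in AB1 and -0.62 in AE17, an interaction of 1.01 ± 0.20 (adjusted p = 0.000786). It was at 13.6 to 25.9 CPM (median 18.9) and 12.3 to 16.7 CPM (median 14.9) in AB1 IPL and SC tumors, and at 7.37 to 17.2 CPM (median 12.4) and 15.2 to 25.8 CPM (median 17.6) in AE17. With the lane as a covariate 1 of 27 passed (median 0.85), and with the tissue scores 7 (median 0.38).

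Of the 455 genes with a site effect in AE17 only, those that fell with the largest interaction and a small effect in AB1 were Cacna1a, Hoxd10, Shank2, Crocc2 and Cacnb2. Cacna1a and Cacnb2 encode the pore and an accessory subunit of voltage-gated calcium channels. Cacna1a (chr8:84388440-84640246, plus strand) was at 3.62 to 12.9 CPM (median 7.11) in AE17 IPL and 8.97 to 88.6 CPM (median 43.9) in AE17 SC tumors, and at 5.75 to 9.91 CPM (median 6.64) and 4.00 to 7.90 CPM (median 5.81) in AB1. Of 8 AE17 IPL tumors, 6 were below every SC tumor, and the AB1 sites overlapped. The interaction of Cacna1a was 2.90 ± 0.45 (adjusted p = 8.76e-05), and with the lane as a covariate 3.39 (adjusted p = 0.0355). Cacnb2 (chr2:14603088-14987908, plus strand) had 2.39 ± 0.40 (adjusted p = 0.000169), from 0.416 to 1.51 CPM in AE17 IPL and 1.38 to 10.7 CPM in AE17 SC tumors. Hoxd10, a homeobox gene that specifies position along the body and limb axes (chr2:74691924-74695105, plus strand), was at 0 to 0.297 CPM in all AE17 IPL and 0.419 to 3.70 CPM in AE17 SC tumors, without overlap, and at 15.4 to 22 and 19 to 23 CPM in AB1. The AE17 IPL levels of Hoxd10 were near the detection limit. Its interaction was 2.87 ± 0.46 (adjusted p = 0.000122) and 3.68 with the lane as a covariate (adjusted p = 0.0316). Crocc2 (chr1:93168725-93231072, plus strand) had 2.49 ± 0.59. Shank2, a scaffold protein of synapses (chr7:144001928-144424494, plus strand), had 2.58 ± 0.83 (adjusted p = 0.0262). It was at most 0.369 CPM in any AB1 tumor, and without AB1 IPL mouse 4 or 7 it had 2.21 or 2.44 at an adjusted p of 0.0831 or 0.053. The other 3 no longer passed with the lane as a covariate, at 2.57 for Shank2 (adjusted p = 0.273), 3.02 for Crocc2 (adjusted p = 0.105) and 2.47 for Cacnb2 (adjusted p = 0.0638). Under the tissue scores Shank2 (1.34, adjusted p = 0.342) and Crocc2 (1.25, adjusted p = 0.236) did not pass, and Cacnb2 was 1.45 (adjusted p = 0.0185).

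Genes that rose in AE17 only were Zbtb8b, Hpca, Tmprss11f, Cxadr and Gdf15 by the same rule. Cxadr, an adhesion protein of tight junctions and the receptor of coxsackieviruses (chr16:78301489-78359774, plus strand), was at 11.3 to 23.1 CPM (median 19.9) in AE17 IPL and 1.46 to 10.1 CPM (median 5.42) in AE17 SC tumors, without overlap, and at 6.58 to 27 CPM (median 15.9) and 11.1 to 18.1 CPM (median 12.6) in AB1. The interaction was -1.49 ± 0.35 (adjusted p = 0.00306). Gdf15, a stress-induced cytokine (chr8:70629393-70632456, minus strand), rose from a median of 1.94 to 3.73 CPM in AE17 (-1.45 ± 0.39, adjusted p = 0.00884). Zbtb8b, a zinc finger gene (chr4:129425765-129440853, minus strand), and Hpca, the calcium sensor hippocalcin (chr4:129111570-129122036, minus strand), were at most 0.594 and 0.363 CPM in AE17, levels near the detection limit, with -3.88 ± 1.06 and -2.61 ± 0.63. Tmprss11f, a transmembrane serine protease (chr5:86521898-86632424, minus strand), had -1.50 ± 0.51 at an adjusted p of 0.0349. It no longer passed when any 1 of 8 tumors was left out (adjusted p up to 0.0703) and was -1.21 (adjusted p = 0.0702) without AE17 IPL mouse 1. None of the 5 passed with the lane as a covariate, at -3.57 for Zbtb8b (adjusted p = 0.151), -2.78 for Hpca (adjusted p = 0.085), -1.43 for Cxadr (adjusted p = 0.133), -0.84 for Tmprss11f (adjusted p = 0.646) and -0.78 for Gdf15 (adjusted p = 0.524). Of the 5, Hpca passed with the tissue scores, and Zbtb8b (-3.75, adjusted p = 0.0715), Cxadr (-1.15, adjusted p = 0.0724), Tmprss11f (-0.45, adjusted p = 0.607) and Gdf15 (-0.77, adjusted p = 0.192) did not.

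Genes of the amino acid and endoplasmic reticulum stress response passed the interaction for 7 of 16, all lower in AB1, with medians of -0.18 in AB1 and 0.13 in AE17. In AE17, 5 of the 16 rose, where 8.44% of all genes tested had a site effect in either direction, and in AB1 4 fell and 1 rose, a share near the 27.4% of all genes. Chac1, which degrades glutathione, was at 6.44 to 9.26 CPM in the 8 AE17 IPL tumors, above the 3.63 to 6.12 CPM of every AE17 SC tumor, and at 2.66 to 11.1 and 5.86 to 13.8 CPM in AB1 (-1.24 ± 0.29, adjusted p = 0.00297). Sesn2, a leucine sensor, likewise rose above every SC tumor in all 8 AE17 IPL tumors (-0.67 ± 0.15). Asns, asparagine synthetase, and Trib3, a pseudokinase of the same stress pathway, had opposite site effects, -0.49 and 0.33 for Asns and -0.99 and 0.68 for Trib3, with interactions of -0.82 ± 0.15 and -1.67 ± 0.30. With the lane in the fit 0 of 16 passed (8 at an unadjusted p under 0.05) and with the tissue scores 2. Glycolysis genes passed for 4 of 22, all lower in AB1. Hk2, hexokinase 2, had opposite effects (-0.42 in AB1 and 0.49 in AE17, -0.91 ± 0.17), and Pfkp, phosphofructokinase (-1.02 ± 0.18), Slc2a1, the glucose transporter GLUT1 (-1.01 ± 0.25), and Slc16a3, a lactate exporter (-1.22 ± 0.42), fell in AB1 only. Slc16a3 no longer passed when any 1 of 13 tumors was left out (adjusted p up to 0.0637). By limma-voom 13 of the 22 passed, beside 4606 of all 15681 genes tested. With the tissue scores 2 passed and with the lane as a covariate 0 (3 at an unadjusted p under 0.05).

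B cell genes rose in AE17 IPL tumors (6 of 8) and for 2 of 8 in AB1, where 1 fell. Plasma cell genes rose for 5 of 12 in AE17 and 8 of 12 in AB1, where 2 fell. The median of the 8 B cell genes was 0.85 in AB1 and 1.45 in AE17, 2 passed the interaction (1 without AE17 IPL mouse 5), and the level summed over the 11 genes of the list with a row was 50.7 to 150.2 CPM (median 77.7) and 49.8 to 64.8 CPM (median 56.0) in AB1 IPL and SC tumors and 80.4 to 391 CPM (median 115) and 23.4 to 80.1 CPM (median 61.3) in AE17, without overlap in AE17. At the medians most of the AE17 sum was Pax5, the B lineage transcription factor, at 48.7 to 109 CPM (median 78.1) in IPL and 8.37 to 46.0 CPM (median 33.5) in SC tumors, while Cd79a and Ms4a1, which encodes CD20, had medians of 1.30 and 0.893 CPM in AE17 IPL tumors. Cd79a, a chain of the B cell receptor, rose in AE17 (4.07) with 0.85 in AB1 (-3.21 ± 0.98, adjusted p = 0.0192, and -2.29 with an adjusted p of 0.056 without AE17 IPL mouse 5), and the other of the 2 was Cd22. Ms4a1 and Pax5 had -2.25 ± 1.37 and -0.69 ± 0.43 and did not pass. Of 12 plasma cell genes, 1 passed (Ighg2b, -4.76 ± 1.65), and its levels reached 248 CPM in 1 AE17 IPL tumor at a median of 0.762 CPM. The count was 0 when any 1 of 15 tumors was left out and 2 without AB1 SC mouse 1, AE17 IPL mouse 3 or AE17 SC mouse 3. Of the 8 B cell and 12 plasma cell genes, 0 passed with the lane as a covariate. At an unadjusted p under 0.05 they numbered 2 and 1. Dendritic cell (3 of 14), neutrophil (2 of 12), mast cell and eosinophil (1 of 13), serous cavity macrophage (3 of 11) and complement genes (3 of 16) passed at shares of 7.69% to 27.3%, around the 20.5% over all genes. The dendritic cell count was 1 when any 1 of 9 tumors was left out, the neutrophil count 4 or 5 without AB1 IPL mouse 2, 6, 7 or 8 or AE17 SC mouse 6, and the serous macrophage count 5 without AE17 IPL mouse 3. The neutrophil count also moved with the tool, at 7 of 14 by DESeq2, 4 of 12 by the quasi-likelihood fit without robust weighting and 1 of 12, lower in AB1, by limma-voom, while the 7 and the 4 were all higher in AB1. Of the 12 neutrophil genes 0 passed with the lane as a covariate or with the tissue scores, and 1 had an unadjusted p under 0.05 in each. The mast cell and eosinophil count was 2 without AB1 IPL mouse 2 or AB1 SC mouse 6 and 0 without AB1 IPL mouse 3 or AE17 SC mouse 6. Of the neutrophil genes, S100a8 and S100a9, the calprotectin subunits of neutrophils, rose in AB1 (3.70 ± 1.06 and 4.02 ± 1.11), from 2.21 to 6.70 CPM for S100a9 in AB1 SC to 0.575 to 229 CPM in AB1 IPL tumors, in which 5 lay above and 3 below every SC tumor. Prg4, lubricin, rose in AB1 (2.61 ± 0.59), and Alox15, a lipoxygenase of resident peritoneal and pleural macrophages, rose in AE17 (-3.22 ± 0.78).

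Fatty acid oxidation genes and targets of PPAR, the nuclear receptors of lipid metabolism, passed for 7 of 20, all higher in AB1, although their medians were close, at 0.38 in AB1 and 0.33 in AE17. Pdk4, a kinase that shuts off pyruvate oxidation, rose in all 8 AB1 IPL tumors above every SC tumor (3.78 to 161 against 0 to 2.48 CPM) and had 1.62 ± 0.59 in AE17 (adjusted p = 0.0852), with an interaction of 4.03 ± 0.90 (adjusted p = 0.00249). Fabp3, the fatty acid binding protein of muscle and heart, had 3.40 ± 0.85, Acadvl, an acyl-CoA dehydrogenase, 0.52 ± 0.15, and Acot2, a thioesterase, 0.77 ± 0.19 from a fall in AE17. The count was 11 without AE17 IPL mouse 5, whose adipocyte level of 2002 CPM, summed over 14 genes, was the highest of all tumors, and it was 0 with the lane as a covariate (8 at an unadjusted p under 0.05) and 2 with the tissue scores. Of 12 PPAR and RXR receptors and coregulators, 2 passed (16.7%, against 20.5% of all genes tested), among them Rxra, a retinoid X receptor (0.51 ± 0.13). Under the lane covariate 0 of the 12 passed (2 at an unadjusted p under 0.05). Of 11 adipocyte genes 0 passed by edgeR (3 at an unadjusted p under 0.05), and Slc2a4, the glucose transporter GLUT4, had 2.86 ± 1.13 (adjusted p = 0.0696). By limma-voom 4 of them passed and by DESeq2 1 of 14, and by edgeR 5 did without AE17 IPL mouse 5 and 1 without AB1 IPL mouse 1, AE17 IPL mouse 6 or AE17 SC mouse 1.

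Genes of cell division, cholesterol and lung epithelium had few interactions. Of 27 genes of DNA replication and mitosis 0 passed by edgeR (0 at an unadjusted p under 0.05), 0 by DESeq2 and 2 by limma-voom, with a median interaction of 0.02, and the smallest p belonged to Ccnb2, cyclin B2 (0.21 ± 0.12, adjusted p = 0.252). Of 19 cholesterol genes 0 passed by edgeR (2 unadjusted), 0 by DESeq2 and 3 by limma-voom, with Dhcr7, the last enzyme of cholesterol synthesis, at -0.48 ± 0.19 (adjusted p = 0.0649). By edgeR 3 cholesterol genes passed without AB1 IPL mouse 8 and 1 without AE17 IPL mouse 5 or AE17 SC mouse 1 or 3. Of 4 tested lung epithelium genes 0 passed by edgeR (0 unadjusted), DESeq2 or limma-voom, and the list was at 18.7 to 42.9 CPM in sum over the 11 of its genes with a row, across all tumors. Oxidative phosphorylation genes passed for 4 of 26 (7 without AE17 IPL mouse 5), by small amounts such as 0.36 ± 0.10 for Sdhb of complex II. Endothelial genes passed for 3 of 21, of which Aplnr, the apelin receptor, rose in AB1 (1.66 ± 0.34), Flt1, a receptor of VEGF, fell in AB1 (-0.74 ± 0.23) and Erg, an endothelial transcription factor, fell in AE17 (1.02 ± 0.32). Heat shock chaperones (1 of 14, Hspb1, 1.70 ± 0.60), immediate early genes (5 of 16, 3 higher and 2 lower in AB1, led by Egr2 at -1.13 ± 0.27) and Schwann cell genes (1 of 8, Pmp22, 0.75 ± 0.22) had like shares or lower ones than all genes, apart from the immediate early genes at 31.2%. The split of the immediate early genes was 2 higher and 5 lower in AB1 by limma-voom and 2 higher and 3 lower when the replicate number was a block, and 0 passed with the lane as a covariate (5 at an unadjusted p under 0.05) or the tissue scores (7). Hspb1 no longer passed when any 1 of 20 tumors was left out (adjusted p up to 0.0728), and the Schwann cell count was 2 without AB1 SC mouse 5 or AE17 SC mouse 3. Of 9 mesothelial genes 2 passed, and 1 when any 1 of 10 tumors was left out. Wt1, a transcription factor of mesothelium, rose in AE17 IPL tumors (0 to 2.55 against 0 to 0.291 CPM, -3.42 ± 1.07), and Cdh1, E-cadherin, fell in AB1 (-1.18 ± 0.40) and no longer passed when any 1 of 10 tumors was left out (adjusted p up to 0.083). Of the 4 keratinocyte genes tested 3 passed, Trp63 (1.67 ± 0.44), Krt10 (0.76 ± 0.21) and Sfn (-0.97 ± 0.29), and 0 did so with the lane as a covariate (2 at an unadjusted p under 0.05) or the tissue scores (3). In AB1 the 3 were between 0.583 and 3.58 CPM. Of the oxidative phosphorylation, endothelial, heat shock, Schwann cell and mesothelial genes, 0 passed with the lane as a covariate. Their counts at an unadjusted p under 0.05 were 4, 3, 0, 1 and 1 in that order.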

How the data were processed

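Whole-tumor polyA RNA of 32 mice (8 per group) was sequenced as 50 bp single-end reads. Per the labels and the study's methods, the authors used bcl2fastq 1.8.4, aligned reads to the mouse genome with HISAT2 2.0.4 and deposited raw counts per Ensembl gene, which are the unit used here. Of 39676 gene IDs, 39495 matched GENCODE M21 (GRCm38) without their version, the source of coordinates. Total counts per tumor (15432258 to 20649645) limit the precision of low genes.

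Genes passing filterByExpr (15681) were fitted with edgeR 4.0.16 (R 4.3.3; TMM factors, robust quasi-likelihood F tests, two-sided) over 4 groups in 1 fit, with Benjamini-Hochberg adjustment over all genes tested and a threshold of 0.05. Site effects within each model came from the same fit. CPM were scaled by TMM factors. DESeq2 1.42.0 and limma-voom 3.58.1 with sample quality weights, other scalings, filters and thresholds, the replicate number as a block, the sequencing lane, lanes with both sites only, tissue scores and leaving out each tumor were alternatives. The lane was read from the column names. The script was tested on simulated data. Tumors are separate mice, and the labels do not say whether they came from separate inoculations, so p-values measure the spread between these mice.

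Named genes were protein-coding, with an interaction past the threshold and a mean of at least 1 CPM in at least 1 group. They were the 6 with opposite effects in each direction whose smaller site effect was largest, the 5 in each model and direction with the largest interaction and a site effect under 0.5 in the other model, and up to 4 members of each list with the smallest interaction p, whether or not past the threshold. The choice of Psme1 and of genes in the closing section followed a look at their values. The comparison and the 41 lists were chosen with earlier results of these data known. Of 750 list genes, 657 have a row, and the rest are not analysed here.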

Additional observations from a re-analysis of the deposited data

Results flagged for a closer look

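The interaction is itself a test of whether the site effect differs between the models, so its counts stand here as differences between groups: 3212 genes in all, of which 158 had opposite site effects, 2120 a site effect past the threshold in AB1 only and 455 in AE17 only.

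Single tumors far from the other 7 of their group were sought with Dixon's test at the 95% level on log2(CPM + 0.5) for the named opposite and one-sided genes and on the summed levels of the main lists. Of 156 tests 11 passed, where chance gives about 7.8, so the number says little. AB1 IPL mouse 2 was lowest in Mylk2 (0.621), the muscle light chain kinase, and highest in Il1a (0.537) and Zbtb8b (0.527). AE17 IPL mouse 5, the tumor with the highest adipocyte sum, was lowest in Ido2 (0.597) and highest in Car4 (0.647) and in the collagen sum (0.547). AB1 IPL mouse 8 was lowest in the MHC class I sum (0.579). AE17 IPL mouse 1 was highest in Gdf15 (0.543). Among AE17 SC tumors, mouse 4 was highest in Zbtb8b (1.0, with the other 7 at 0 CPM), mouse 8 in Hoxd10 (0.642) and mouse 6 in Crocc2 (0.632).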

How the results depend on the processing

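Of the counts, 3212 interactions were 3615 by DESeq2, 3228 with median-ratio factors and 3255 with total counts. Counts that moved by over 1.5 times are given in the order opposite, AE17 only, AB1 only and all interactions, where each moved. They were 692 and 1208 (limma-voom), 77 opposite (no filter), 89 and 292 (replicate block), 22, 129, 1016 and 1513 (adjusted p under 0.01), 23, 125, 722 and 1347 (log2 difference of at least 1), 0, 14, 83 and 117 (lane as a covariate), 0, 0, 6 and 6 (within lanes) and 4, 54, 714 and 982 (tissue scores). Leaving out 1 tumor gave 65 to 360 opposite genes and 213 to 771 in AE17 only, with AE17 SC mouse 6 at the low and mouse 1 at the high end of both, and 2722 to 3664 interactions. At a log2 threshold or a stricter p fewer genes can pass, and within lanes fewer tumors enter the fit. For the rest the cause was not tested. No named gene that had passed changed sign under any of these alternatives. With the replicate block, 2398 genes passed. Same-numbered tumors of a model correlated in their deviations at a mean r of -0.118 in AB1 and 0.0725 in AE17 (other numbers 0.0182 and -0.00724), and 0 of 8 and 3 of 8 correlated best with their own number, so they share only a number. No scaling moved the median of all genes by over 0.1. Genes near 1 CPM rest on few counts per library.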

Other observations

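Both families given here lie outside the lists and were looked up after their values had been seen. Of 33 tested Hox genes, which set position along the body axis, 8 had an interaction past the threshold, all higher in AB1 (11.9% of all genes tested), a share near that of all genes called in either direction (20.5%). The site effect passed in AE17 for 0 up and 9 down (8.44% of all genes in either direction) and in AB1 for 4 up and 0 down (27.4%). Hoxd9 ranged from 0.356 to 1.72 CPM (median 0.997) in AE17 IPL and 1.74 to 9.22 CPM (median 4.21) in AE17 SC tumors, without overlap, and from 20.2 to 34.2 and 25 to 28.9 CPM in AB1. Hoxd3, Hoxd4, Hoxd8 and Hoxd10 fell in AE17 only as well, while Hoxd13 had a site effect of 0.48 in AE17 (adjusted p = 0.289). Of the 8, Hoxd9 (2.39, adjusted p = 0.0436) and Hoxd10 (3.68, adjusted p = 0.0316) passed with the lane as a covariate.

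Of 19 tested genes of the circadian clock, 7 passed, 6 higher in AB1 and 1 higher in AE17 (20.5% of all genes tested, 11.9% and 8.62% by direction). Dbp, a transcription factor driven by the clock, was at 2.85 to 5.07 CPM in AE17 IPL and 5.40 to 11.5 CPM in AE17 SC tumors, without overlap, and its site effects were 0.53 in AB1 and -0.88 in AE17 (interaction 1.42 ± 0.23 SE, adjusted p = 0.000144). Nr1d1, which encodes the clock repressor REV-ERB alpha, was opposite in the same way, at 0.67 and -0.44. Arntl, the activator of both, had an interaction of -0.30 (adjusted p = 0.0613). Of the 7, Dbp (1.42, adjusted p = 0.0442) was the 1 that passed with the lane as a covariate. The hour of harvest per group is not given in the sources used here.

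Within lanes, 6 genes passed, Gsta2 at -5.12, Ido2 at -3.25 and Igf2r at 1.00 among them, with Gm3776, Gsta1 and Slc7a2.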
